A study of Mus musculus with 2 samples.

Results

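Aminoacyl-tRNA synthetases were compared between 2 mouse embryonic stem cell cultures that differ in Mof, the acetyltransferase of histone H4 encoded by Kat8. The members are the genes whose symbol names an aminoacyl-tRNA synthetase, plus the scaffold genes Aimp1 and Aimp2, and only probe sets annotated to exactly 1 gene were used. This gave 37 genes on 72 probe sets, out of 18193 genes on the array. They were 19 cytosolic synthetases, 16 mitochondrial synthetases, whose symbols carry the suffix 2, and both scaffolds. Tarsl2 carries that suffix but encodes a cytosolic enzyme and was counted as cytosolic. Eprs, whose symbol differs in form, is described apart.

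One culture has the genotype MOF +/+ and the other MOF-/-, and their arrays are called wild-type-labelled and null-labelled here. Both lines are C57BL/6 embryonic stem cells from embryos at 3.5 dpc, used at passage 15 to 18. They were maintained with LIF on mouse embryonic fibroblast feeders and then passaged 2 times without them before RNA was taken. Each culture was hybridised to 1 array, so the differences have neither a replicate error nor a test, and the number of arrays limits the precision. How the Mof-/- allele was made, and how many clones or animals each line stands for, is not stated in the labels.

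The probe set of Kat8, the targeted gene, read 8.06 on the wild-type-labelled array and 8.37 on the null-labelled array. Its place relative to the deleted part is unknown here, so it does not check the labels, and every direction below rests on those labels. Fibroblast, macrophage and interferon response genes were lower and pluripotency genes higher on the null-labelled array, with values given beside the marker lists.

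Aminoacyl-tRNA synthetases join each amino acid to its tRNA, the step that sets the genetic code before the ribosome acts. Most animals keep separate nuclear genes for the cytosolic and the mitochondrial enzyme of an amino acid, while Kars and Gars each serve both compartments and Qars has no mitochondrial counterpart. Uncharged tRNA activates the kinase Gcn2, which raises translation of the transcription factor Atf4, and many cytosolic synthetase genes are known Atf4 targets in this amino acid response. Several cytosolic synthetases sit together in a multi-synthetase complex held by the scaffold proteins Aimp1, Aimp2 and Eef1e1.

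The sequences that bear on this division are the promoters, because Atf4 binds a composite C/EBP-ATF element. The letters TGATGNAA were searched on both strands of 300 bases per start site (250 before it and 50 after it) in RefSeq promoters of build GRCm38.p6, which held 28 of the 37 genes. The element was present in 5 of 12 cytosolic genes, Aars, Gars, Iars, Tars and Yars, and in 0 of 14 mitochondrial genes, against 4.51% of 27025 genes with a promoter entry. Cars, Hars, Lars, Nars, Rars, Vars and Wars were the cytosolic genes without an entry. A stretch from the promoter of each of these 5 genes is shown with that of Kars, a gene for both compartments, and of Lars2, the mitochondrial member with the largest difference. Capitals mark TGATGNAA or its reverse complement, the E-box CACGTG in Aars, and an NRF1-type match (GCGCA, any base, then GCGC, on either strand) in Kars. The sequences run 5′ to 3′ on the strand of the gene. Their positions are chr8:111033682-111033781 (+) for Aars, chr6:55037901-55038000 (+) for Gars, chr15:11399659-11399758 (-) for Tars, chr13:49682126-49682155 (+) for Iars, chr4:129189895-129189924 (+) for Yars, chr8:112011355-112011454 (-) for Kars and chr9:123366827-123366926 (+) for Lars2.
Aars: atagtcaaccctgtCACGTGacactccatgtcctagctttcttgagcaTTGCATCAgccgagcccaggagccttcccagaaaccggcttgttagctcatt
Gars: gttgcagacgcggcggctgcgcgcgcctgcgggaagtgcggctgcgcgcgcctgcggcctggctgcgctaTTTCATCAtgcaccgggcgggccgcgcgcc
Tars: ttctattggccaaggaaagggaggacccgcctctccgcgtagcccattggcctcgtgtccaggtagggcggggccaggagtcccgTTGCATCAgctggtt
Iars: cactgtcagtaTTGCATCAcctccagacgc
Yars: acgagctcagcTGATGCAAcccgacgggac
Kars: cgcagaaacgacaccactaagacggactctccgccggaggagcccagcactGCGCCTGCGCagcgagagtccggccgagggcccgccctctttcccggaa
Lars2: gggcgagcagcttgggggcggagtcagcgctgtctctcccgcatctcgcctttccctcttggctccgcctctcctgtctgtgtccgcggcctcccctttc

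The element began at base -112 in Aars, which held another at base 10, and at -30 in Gars, -15 in Tars, 8 in Iars and 4 in Yars, counted from the RefSeq start. The E-box, the letters bound by Myc and its partners, was present in 4 of the 12 cytosolic genes (Aars, Farsb, Iars and Tars) and 1 of the 14 mitochondrial genes (Ears2), against 8.09% of all genes. The NRF1-type letters were present in 3 cytosolic genes (Farsb, Kars and Tars) and 2 mitochondrial genes (Iars2 and Mars2), against 5.19%. None of these motifs overlapped another in the stretches shown. A match describes letters only, and genes without a match may hold other forms of the same element.

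Most synthetase genes of both compartments were modestly higher on the null-labelled array. That direction turned for 29 of them when differences were taken relative to the pluripotency markers. On that scale 4 members (11.1%) were higher, against 16.2% of all expressed genes, with medians of -0.15 and -0.51. Differences are log2 values of the null-labelled array minus those of the wild-type-labelled array, taken from the brightest probe set of a gene, and expressed genes are those with 6.02, the median of all values, or more on at least 1 array. Of the 36 expressed members, 33 were higher and 3 lower, the latter being Rars, Hars and Wars2, while 56.7% of the 12015 expressed genes were higher. The median difference over the members was 0.46 (SD over genes 0.29), against 0.10 (SD 0.81) over all expressed genes. Without the level filter 34 of all 37 members were higher and the median was 0.46. Their differences were small: 1 member, Lars2, was at least 2-fold higher and 0 were at least 2-fold lower, where the shares of all expressed genes past 2-fold were 5.09% upward and 11.9% downward. At 1.5-fold, 6 members (16.7%) were higher and 0 lower, against 17.3% higher and 19.2% lower among all expressed genes, so the share of higher members at that size was near the background.

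With no replicate arrays, the spread available is that among probe sets reading the same gene, whose differences had a pooled SD of 0.33 over 5362 genes and 0.20 over the 18 members with several expressed probe sets. Of the 36 expressed members 22 (61.1%) exceeded the wider of these, against 32.2% of all expressed genes, and Wars2 lay below its negative. Variation between cultures is not part of this spread.

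**Figure D1:**
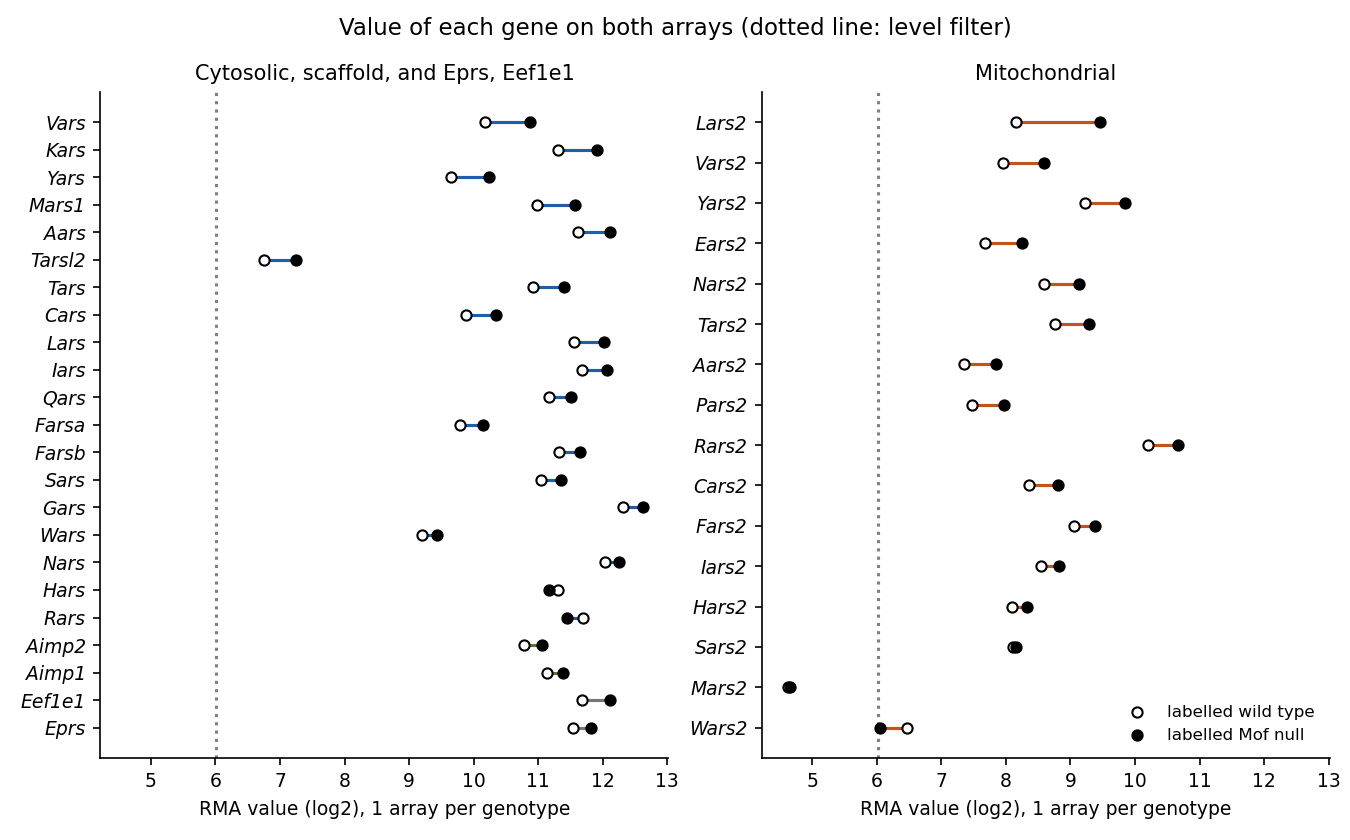
RMA log2 value of each gene on the wild-type-labelled array (open circles) and the null-labelled array (filled circles), with the level filter of 6.02 as a dotted line. Filled circles lie to the right for all genes shown except Rars, Hars and Wars2, and Mars2 lies below the filter on both arrays. Relative to the pluripotency markers 29 members change sign, and 16.2% of all expressed genes are higher.

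Among the cytosolic synthetases the valyl enzyme gene Vars had the largest difference, with 10.17 on the wild-type-labelled array and 10.87 on the null-labelled array, 1.63-fold higher. Kars, which makes the lysyl enzyme of both compartments, read 11.31 and 11.91, and the tyrosyl enzyme gene Yars read 9.64 and 10.24, each 1.51-fold higher. The methionyl enzyme gene, Mars1, read 10.99 and 11.57. These 4 genes, each read by 1 probe set, had the highest differences of their compartment, between 0.58 and 0.70.

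A middle group of cytosolic genes lay between 0.39 and 0.49. It held the alanyl enzyme gene Aars, at 11.62 and 12.11, whose other probe set differed by 0.69. The threonyl enzyme gene Tars read 10.92 and 11.40, and its close relative Tarsl2, of lower signal, read 6.75 and 7.24, with a difference of 0.49 for each. The cysteinyl gene Cars (9.89 and 10.35), the leucyl gene Lars (11.55 and 12.01) and the isoleucyl gene Iars (11.68 and 12.06) completed it.

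The remaining cytosolic genes had differences of 0.34 or less. The glutaminyl gene Qars read 11.16 and 11.51, and its other expressed probe sets differed by 0.08 and 0.22. The phenylalanyl enzyme is built from the products of Farsa and Farsb, which read 9.79 and 10.14, and 11.32 and 11.64. Their brightest probe sets differed by 0.34 and 0.32. The other expressed probe sets differed by 0.04 and 0.21 for Farsa and by 0, 0.48 and 0.56 for Farsb, so the likeness rests on the brightest probe sets. The seryl gene Sars differed by 0.31, the glycyl gene Gars by 0.30, the tryptophanyl gene Wars by 0.23 and the asparaginyl gene Nars by 0.21. The other probe set of Sars differed by 0.48, and that of Nars, at 12.09 and 12.13, by 0.03.

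Only Rars and Hars of the cytosolic genes were lower on the null-labelled array. Rars, for the arginyl enzyme, read 11.69 and 11.45 on its single probe set. Hars, for the histidyl enzyme, read 11.31 and 11.16 on its brightest probe set and 10.24 and 10.34 on another, so its probe sets did not share a direction. Both differences, -0.24 and -0.15, were smaller than the pooled SD between probe sets of 0.33. The median over the 19 cytosolic genes was 0.39 (SD over genes 0.24), with 17 higher, against 56.7% of all expressed genes.

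The mitochondrial synthetases, which serve translation of the mitochondrial genome, had 14 of 15 expressed genes higher and a median of 0.49 (SD over genes 0.36). Over all expressed genes 56.7% were higher. The leucyl gene Lars2 stood apart, with 8.16 on the wild-type-labelled array and 9.46 on the null-labelled array, 2.46-fold higher. Its other expressed probe set read 6.14 and 6.81, a difference of 0.67 that is under 2-fold, and another one, below the level filter, read 5.27 and 5.35. The probe sets of Lars2 therefore shared a direction but not a size.

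Below Lars2, 9 mitochondrial genes lay between 0.46 and 0.63. The valyl gene Vars2 read 7.96 and 8.59 and the tyrosyl gene Yars2 read 9.22 and 9.85, each 1.55-fold higher. The glutamyl gene Ears2 (7.68 and 8.26), the asparaginyl gene Nars2 (8.59 and 9.13) and the threonyl gene Tars2 (8.77 and 9.28) followed. The alanyl gene Aars2 differed by 0.50, the prolyl gene Pars2 by 0.49, the arginyl gene Rars2 by 0.47 and the cysteinyl gene Cars2 by 0.46, whose other expressed probe set differed by 0.05.

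Smaller differences were those of Fars2 (0.32), Iars2 (0.28), Hars2 (0.23) and Sars2 (0.05). The second expressed Hars2 probe set differed by -0.35, so Hars2 had no common direction. Wars2, for the mitochondrial tryptophanyl enzyme, was the single mitochondrial gene that was lower, at 6.47 and 6.05, and its other probe set read 6.38 and 5.64. Both Wars2 probe sets lay close to the level filter. Mars2, at 4.62 and 4.65, lay below the filter on both arrays.

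**Figure D2:**
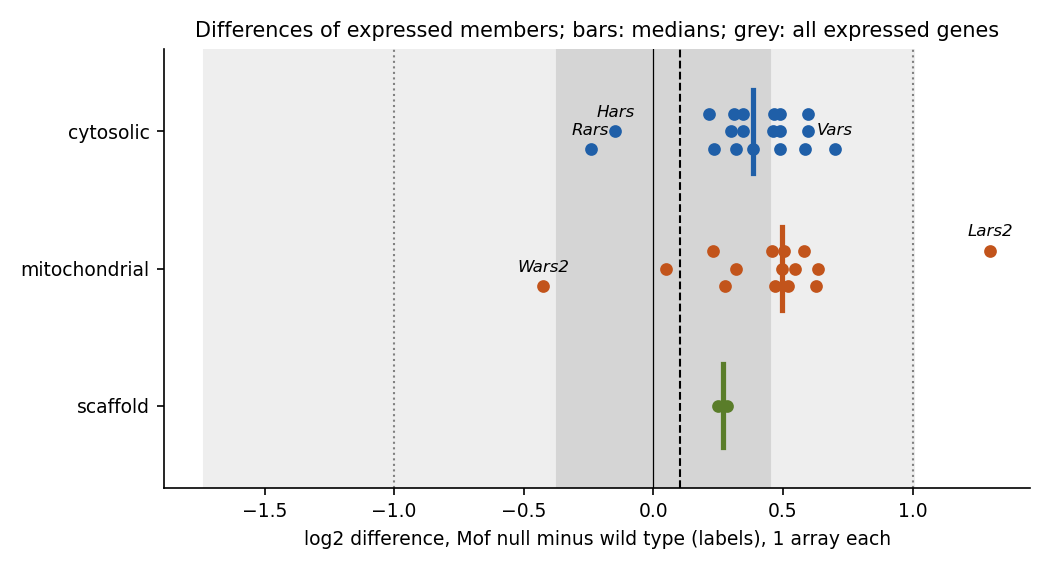
Log2 difference of each expressed member (points) by compartment, with group medians as coloured bars, over the central 50% (dark grey) and central 90% (light grey) of all 12015 expressed genes and their median of 0.10 (dashed). Cytosolic and mitochondrial genes overlap over most of their range, with medians of 0.39 and 0.49 (-0.22 and -0.11 relative to the pluripotency markers), and Lars2 alone lies past 1. The median of all expressed genes relative to those markers is -0.51.

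The differences of cytosolic and mitochondrial genes overlapped. The cytosolic median minus the mitochondrial median was -0.11, smaller than the SD over genes of either group. It was 0.00 when all probe sets of each gene were averaged, including those below the level filter. No test was possible with 1 array per genotype, and genes are not replicates.

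Enzymes of the same amino acid were then matched. For 14 pairings (Fars2 was set against Farsa and against Farsb), the mitochondrial gene had the higher difference in 7 and the cytosolic gene in 7, with a median mitochondrial minus cytosolic value of 0.01. In 11 pairings both genes were higher on the null-labelled array. In 7 pairings the differences lay within 0.1 of each other, namely those of Aars, Cars, Farsa, Farsb, Tars, Vars and Yars with their partners. Alanyl enzymes differed by 0.49 and 0.50, cysteinyl enzymes by 0.46 and 0.46, and tyrosyl enzymes by 0.60 and 0.63. These matches rest on the brightest probe sets, and 0.1 is smaller than the pooled SD between probe sets of a gene, 0.33. Other expressed probe sets differed by 0.69 for Aars, 0.25 for Cars, 0.05 for Cars2, 0.42 for Yars2, 0.43 for Tars2 and 0.53 for Vars2. Those of Farsa and Farsb are given above.

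The pairings that did diverge went both ways. Lars2 exceeded Lars by 0.84 and Rars2 exceeded Rars by 0.71, with Rars the lower of the arginyl genes at -0.24 against 0.47 for Rars2. Hars2 exceeded Hars by 0.38 and Nars2 exceeded Nars by 0.33, where the other Nars probe set differed by 0.03. In the other direction the mitochondrial minus cytosolic value was -0.66 for Wars2 and Wars and -0.26 for Sars2 and Sars. Hars and Hars2 have probe sets of both signs, so their divergence rests on the choice of the brightest one.

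**Figure D3:**
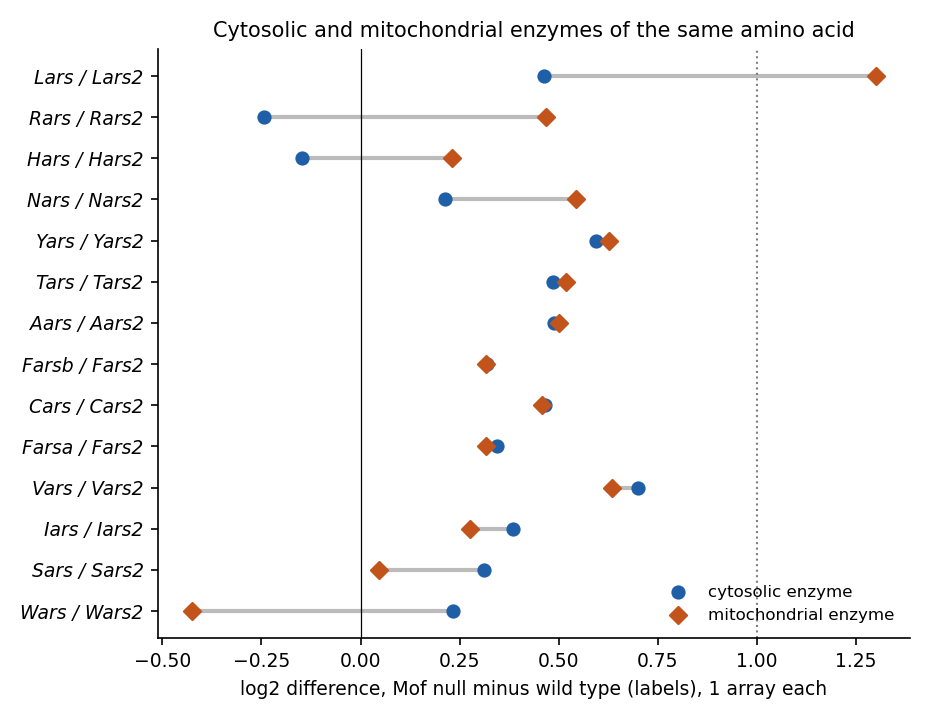
Log2 difference of the cytosolic (circles) and mitochondrial (diamonds) gene for each amino acid, sorted by their gap, 1 array per genotype. Each symbol is the brightest probe set of its gene. In 7 of 14 pairings the symbols lie within 0.1 of each other, while Lars2 exceeded Lars by 0.84 and the gap of Wars2 and Wars was -0.66.

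The synthetase genes commonly reported as Atf4 targets (Aars, Cars, Gars, Iars, Lars, Mars1, Nars, Sars, Tars, Wars and Yars) were all higher, 11 of 11, with differences from 0.21 to 0.60 and a median of 0.46. These values come from the brightest probe sets, and the other Nars probe set differed by 0.03. Of all expressed genes 56.7% were higher. Relative to the pluripotency markers 0 of these 11 genes were higher, with a median of -0.15. On that scale 16.2% of all expressed genes were higher, with a median of -0.51. The other 8 cytosolic genes had 6 higher (1 relative to the pluripotency markers) and a median of 0.34. The ranges overlapped, since that group held both Vars at 0.70 and Rars at -0.24. Split by promoter letters, the 5 cytosolic genes with the C/EBP-ATF element had a median difference of 0.49 and a range from 0.30 to 0.60. The 7 cytosolic genes with a promoter entry but no match had a median of 0.34 and a range from 0.31 to 0.60, so these groups overlapped as well. Neither group holds the cytosolic genes without a promoter entry: Cars, Hars, Lars, Nars, Rars, Vars and Wars. Both ranges therefore leave out the highest cytosolic difference, Vars at 0.70, and the lower genes, Rars at -0.24 and Hars at -0.15.

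The multi-synthetase complex held differences from -0.24 (Rars) to 0.60 (Kars), with an SD over genes of 0.24. Its scaffold gene Aimp1 read 11.14 and 11.38, and Aimp2 read 10.78 and 11.07, 1.19-fold and 1.22-fold higher. Of 10 complex genes that could be read, 9 were higher, Rars being the exception, with a median of 0.37. Relative to the pluripotency markers 0 were higher. The shares of all expressed genes were 56.7% and, relative to those markers, 16.2%. The 10 complex genes include Eprs, for the enzyme that charges both glutamate and proline in the cytosol, at 11.54 and 11.82. All 4 Eprs probe sets were higher, by 0.21 to 0.48. The complex genes also include the scaffold gene Eef1e1, at 11.67 and 12.11, which the symbol rule does not take in.

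Synthetases fall into catalytic classes I and II, which have unrelated active site folds, and the differences of the classes overlapped. Of 17 expressed class I members 15 were higher, with a median of 0.46, and of 17 expressed class II members 16 were higher, with a median of 0.34. The share of higher genes over all expressed genes was 56.7%. Class I held the extremes on both sides, Lars2 at 1.30 and Wars2 at -0.42, and also Vars, Vars2, Yars and Yars2.

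Agreement between probe sets was checked because each gene rests on 1 value per array. Of 60 expressed member probe sets, 54 were higher, 1 was at least 2-fold higher and 0 were at least 2-fold lower, with a median difference of 0.34. Among the 18 members with several expressed probe sets, 14 had all of them higher and 1, Wars2, had all of them lower. Such a count was not made over all genes with several expressed probe sets. Hars and Hars2 had probe sets of both signs, and Farsb had 3 higher and 1 with equal values. The 4 Wars probe sets were each higher, by 0.15 to 0.40.

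**Figure D4:**
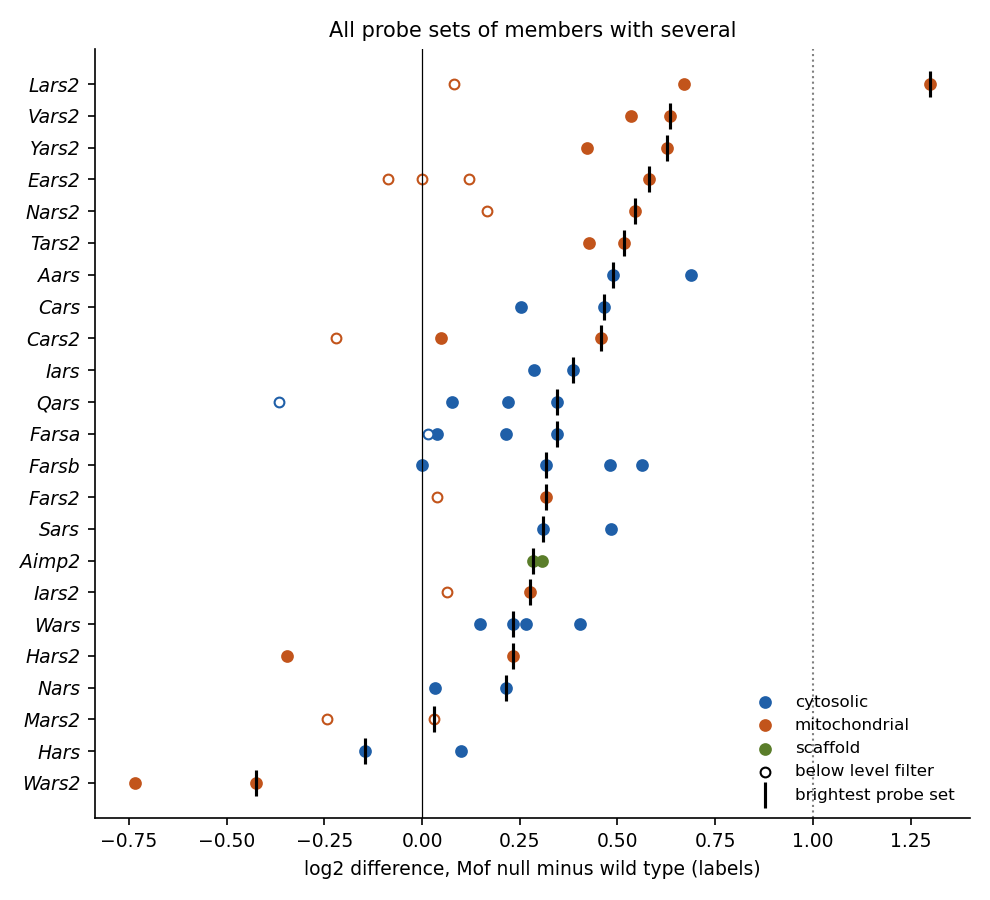
Log2 difference of every probe set of the members that have several, with filled symbols above and open symbols below the level filter and a black tick at the brightest probe set. Lars2 spans 0.67 to 1.30 over its expressed probe sets, and Hars and Hars2 lie on both sides of 0.

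Genes of the amino acid response outside the synthetases had differences of both signs. Of 31 expressed genes of that list 24 were higher, 2 of them past 2-fold, while 2 were lower past 2-fold, and the median was 0.42 (-0.19 relative to the pluripotency markers, with 7 higher). In the background of 12015 genes 56.7% were higher (16.2% relative to the pluripotency markers), and the shares past 2-fold were 5.09% upward and 11.9% downward. The list therefore held genes past 2-fold upward at near the background share, and downward at less than it. Atf4 itself read 12.29 and 12.52. The asparagine synthetase gene Asns, a standard target of the response, read 12.22 and 12.64, the one-carbon enzyme gene Mthfd2 read 10.89 and 11.77, and the amino acid transporter gene Slc7a5 read 11.05 and 11.90. The secreted factor gene Stc2, at 6.99 and 8.36, and the alanine transaminase gene Gpt2, at 8.66 and 9.66, were higher past 2-fold. The transcription factor genes Cebpb, at 11.61 and 10.15, and Atf5, at 10.26 and 9.22, were lower past 2-fold. The stress genes Ddit3 and Atf3 differed by -0.45 and -0.75 and Sesn2 by -0.56, whereas Trib3 and Chac1 differed by 0.55 and 0.55.

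The eIF2 kinases and their partners had no common direction, with 3 of 6 higher, against 56.7% of all expressed genes, and a median of 0.09. Eif2ak4, the gene of Gcn2, read 8.09 and 8.42, and its partner Gcn1 read 9.12 and 9.56. Impact, whose product restrains Gcn2 and which is an imprinted gene, read 10.77 and 9.57, 2.29-fold lower. Eif2ak2, the interferon-induced kinase gene, differed by -0.62.

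Translation factor genes were read in both compartments. All 9 expressed mitochondrial initiation, elongation, release and recycling factor genes were higher, with a median of 0.35, and 2 were higher relative to the pluripotency markers. The shares of all expressed genes were 56.7% and, relative to those markers, 16.2%. Gfm2, a ribosome recycling factor gene, read 8.59 and 9.57, and Gfm1, the gene of the translocating elongation factor, read 10.10 and 10.69. Tufm, which delivers charged tRNA to the mitochondrial ribosome, and Tsfm, which recycles it, differed by 0.46 and 0.65. The 5 expressed cytosolic elongation genes had a median of -0.02, with Eef1a1, the cytosolic counterpart of Tufm, at 14.36 and 14.31. Eef1d, part of the factor that recycles Eef1a1, differed by 0.18, Eif5a by -0.07 and the translocation factor gene Eef2 by 0.05. Their values lay between 12.59 and 14.36 on the wild-type-labelled array, and no test of this contrast was possible. The lists also differ in kind, since the cytosolic one was limited to elongation genes.

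Markers of cell types also differed between the arrays. All 16 pluripotency markers were higher, by a median of 0.61, including Pou5f1 (12.22 and 12.74), Sox2 (12.05 and 12.81) and Nanog (11.92 and 12.66). Their differences ranged from 0.02 to 1.60 (SD over genes 0.44), a spread that values relative to their median do not carry. Of all expressed genes 56.7% were higher and 11.9% at least 2-fold lower. All 23 fibroblast markers that could be read were lower, 22 of them past 2-fold, by a median of -1.91, and each stayed above the level filter on both arrays, from 8.27 to 14.31 (wild-type-labelled) and from 6.50 to 13.08 (null-labelled). The 10 macrophage markers were lower, 9 past 2-fold, by a median of -2.10, ranging from 8.10 to 12.84 and from 5.33 to 10.69. The 10 interferon response genes were lower, 8 past 2-fold, by a median of -2.59, while Wars, an interferon-gamma-induced synthetase gene, was 0.23 higher. The genes with the largest differences in these lists were Tcl1 (8.52 and 10.12), the collagen gene Col1a1 (13.13 and 10.21), the leukocyte gene Ptprc (8.10 and 5.33) and the interferon-induced gene Ifit1 (10.59 and 7.13). None of the defining markers was at 0, a value this scale does not reach, and their part in the synthetase differences was not tested. Set against the pluripotency median, 4 of the 36 members were higher and 32 lower, where 16.2% of all expressed genes were higher. The cytosolic and mitochondrial medians were then -0.22 and -0.11, and that of all expressed genes was -0.51. In whole cultures, fewer cells of a type and less RNA per cell cannot be told apart.

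**Figure D5:**
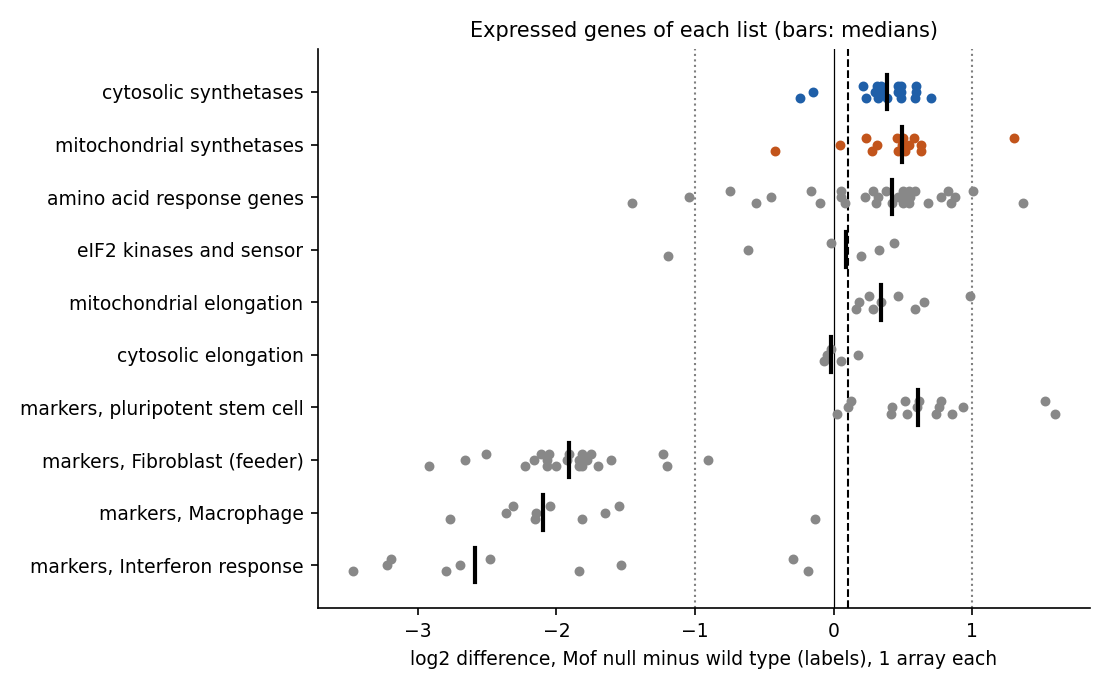
Log2 difference of the expressed genes of each list (points, 1 array per genotype), with list medians as bars and the median of all expressed genes, 0.10, dashed. The synthetase lists (0.39 and 0.49) lie between all genes and the pluripotency markers (0.61), and the medians of the fibroblast, macrophage and interferon lists are -1.91, -2.10 and -2.59.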

How the data were processed

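RNA of 2 cultures was hybridised to 1 array per genotype. The authors deposited log2 values for 45101 probe sets, and the submitters' processing notes name RMA, the affy package and R 2.10.0. The log2 scale was inferred from their range, 2.77 to 14.67, with medians of 6.02 and 6.01. Quantile normalization, a step of RMA, hides a shift of most transcripts. Scanner intensities were not used here.

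The platform annotation gave 34958 probe sets with 1 symbol, 932 with several and 9211 with none. A gene took its brightest probe set (highest mean of the arrays), and percentile 50 of all values was the level filter, which kept 12015 genes. Differences of at least 2-fold were counted, and lists were described by counts and medians. The members and lists were chosen with earlier results of these data known. Named genes were all members, Eprs, Eef1e1, Kat8, the leading gene of each marker list and, of each companion list, the expressed genes past 2-fold and the 4 with the largest differences. Atf3, Atf4, Asns, Chac1, Ddit3, Elac1, Mthfd2, Nanog, Pou5f1, Prorsd1, Sesn2, Slc7a5, Sox2 and Trib3 are outside this rule, picked after seeing their values. Counting was tested on simulated differences. Python 3.11.15, numpy 2.4.6, pandas 2.3.3, statsmodels 0.14.6 and matplotlib 3.10.9 were used.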

Additional observations from a re-analysis of the deposited data

How the results depend on the processing

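With 1 array per genotype no array could be left out, and no error between cultures can be given. Array signal limits Wars2 and Mars2, which lie near or below the level filter. No paired analysis was possible because each genotype has 1 array. Lars2 was the member past 2-fold under every planned setting except the mean of all probe sets (0.68) and differences relative to the pluripotency markers (0.69), where 0 members were at least 2-fold higher. At 1.5-fold 6 members were higher and at 4-fold 0. Relative to the pluripotency markers, 4 members were higher, 32 lower and 1, Wars2, at least 2-fold lower, and 29 members changed sign. The cytosolic and mitochondrial medians turned to -0.22 and -0.11. These turns follow from subtracting 0.61 from every gene, which left 16.2% of all expressed genes higher and 24.5% at least 2-fold lower. The cytosolic minus mitochondrial median turned from -0.11 to 0.0044 with the mean of all probe sets, which takes in those below the level filter, and the cause was not tested. Under the mean of probe sets, removal of _s_at and _x_at probe sets, no or a stricter level filter (percentile 75), centring all genes at 0, removal of the lowess trend with level (span 0.3), renewed quantile normalization and changed membership (Eprs added, Tarsl2 moved, Kars and Gars left out, the most changed member of each compartment left out), the cytosolic median lay between 0.27 and 0.46 and the mitochondrial median between 0.35 and 0.55. In these settings Hars2 (mean of probe sets) and Sars2 (centring) changed sign.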

Other observations

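The medians of further tRNA gene lists, chosen with earlier results of these data known, lay above that of all expressed genes, 0.10, though single genes did not. Each list median was at or below 0 relative to the pluripotency markers, where that of all expressed genes was -0.51. All 6 genes of selenocysteine tRNA synthesis and use were higher, by 0.41 to 0.92 and a median of 0.61, the same as that of the pluripotency markers, relative to which 3 were higher. Selenocysteine is made on a tRNA that the seryl enzyme charges first, and the Sars difference was 0.31. Sephs2, which makes the selenium donor, read 10.20 and 11.11, and Pstk, the kinase that acts on the seryl-tRNA, read 9.17 and 9.95. Sephs1, a relative of Sephs2, differed by 0.66 and Eefsec, the elongation factor for selenocysteine, by 0.56. Of 20 genes for tRNA end maturation and export 18 were higher (4 relative to the pluripotency markers), with a median of 0.35, and 1, the ribonuclease P subunit gene Rpp40, reached 2-fold at 8.90 and 9.91. Another subunit gene, Rpp21, read 8.84 and 9.83, Rpp30 differed by 0.66 and the RNA kinase gene Clp1 by 0.68, and the tRNA 3′ processing gene Elac1 differed by -0.50. The share of all expressed genes that were higher was 56.7%, and 16.2% relative to the pluripotency markers.

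Genes that correct mischarged tRNA in trans had 4 of 5 higher (2 relative to the pluripotency markers) and a median of 0.41. The shares of all expressed genes were 56.7% and, relative to those markers, 16.2%. Aarsd1, which removes wrong amino acids from alanyl-tRNA, differed by 0.81, against 0.49 for Aars, and the D-aminoacyl-tRNA deacylase gene Dtd1 read 8.57 and 9.26. Ptrhd1, Dtd2 and Prorsd1 differed by 0.41, 0.36 and -0.32. Of the genes that make mitochondrial glutaminyl-tRNA without a synthetase of its own, Qrsl1 read 9.03 and 9.64 and Gatb 7.56 and 7.93, while Gatc differed by -0.04. Mtfmt, which formylates the mitochondrial initiator tRNA, differed by 0.02.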
